A study of Mus musculus with 2 samples.

Results

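The Mir302/Mir367 cluster is a run of 5 microRNA (miRNA) genes on mouse chromosome 3, Mir302b, Mir302c, Mir302a, Mir302d and Mir367 in genomic order. They were taken by symbol and not by level, and are 5 of the 1973 miRNA gene rows measured. The measurements came from small RNA libraries (RNA below 30 nt) of mouse forebrain at embryonic day 15.5, strain B6NCrl, with no treatment or mutant allele named. There was 1 group with 2 biological replicates, each a pool of healthy embryos of mixed sex, 78 embryos in replicate 1 and 62 in replicate 2. Pooled tissue gives no value per animal. The p-values below set the difference between these 2 libraries against counting error only, and that difference may be technical.

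MiRNAs are cut from hairpin precursors and guide a silencing complex to messenger RNAs, which they recognise mainly by the seed, bases 2 to 8 of the mature strand. The genes of this cluster are known to be made from 1 primary transcript in pluripotent cells of the early embryo, under control of the pluripotency factors Oct4 and Sox2. Their products are known for driving the short cell cycle of such cells and for helping to reprogram somatic cells, and the cluster is known to fall silent as neural tissue matures.

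The cluster spans 580 nt of the plus strand of mm10, chr3:127545228-127545807. Its precursors are 66 to 75 nt long and 43 to 65 nt apart. All 5 lie on the opposite strand to the protein-coding gene Larp7, a binding protein of the 7SK small nuclear RNA, inside its intron between exons 8 and 9 (chr3:127544279-127545825, 1547 nt). That intron is present in 2 of the 4 annotated Larp7 transcripts, and the end of Mir367 is 18 nt from exon 8.

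The RefSeq hairpins are shown in full because they let the shared and the distinct letters of the 5 precursors be compared. Capitals mark the letters AAGUGCU, the seed of the 3p arms of miR-302b and miR-302d, and in Mir367 the letters AUUGCAC, the seed of miR-367-3p.
Mir302b: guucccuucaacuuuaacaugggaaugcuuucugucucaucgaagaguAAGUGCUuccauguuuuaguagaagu
Mir302c: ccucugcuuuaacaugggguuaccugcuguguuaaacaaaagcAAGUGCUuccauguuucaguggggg
Mir302a: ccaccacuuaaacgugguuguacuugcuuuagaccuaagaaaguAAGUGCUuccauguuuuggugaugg
Mir302d: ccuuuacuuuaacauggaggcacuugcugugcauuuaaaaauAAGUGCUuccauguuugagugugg
Mir367: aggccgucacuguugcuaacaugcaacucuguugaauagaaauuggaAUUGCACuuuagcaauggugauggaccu

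The mature 3p arms listed by RefSeq are shown with the seed, bases 2 to 8, in capitals, since the seed sets the family of each product.
miR-302b-3p: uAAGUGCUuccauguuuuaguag
miR-302d-3p: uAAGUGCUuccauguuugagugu
miR-302c-3p: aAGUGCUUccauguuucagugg
miR-367-3p: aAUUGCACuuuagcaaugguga

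The 3p seed of miR-302b and miR-302d was AAGUGCU, held by 5 of the 1679 mature names in the table (0.298%), the others being miR-291a-3p, miR-294-3p and miR-295-3p. The listed miR-302c-3p starts 1 base later, so that the same 7 letters stand at its bases 1 to 7 and its seed reads AGUGCUU, found in no other mature name. Mir302a has no 3p entry in the table, and its hairpin holds AAGUGCU once, from base 45. Of all 1005 hairpins in the table, 24 (2.39%) contain AAGUGCU anywhere on the strand of the RNA. The miR-367-3p seed AUUGCAC belonged to 6 mature names (0.357%), those of miR-25, miR-32, miR-92a, miR-92b and miR-363 besides miR-367.

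The 5p arms group in another way, and are shown for that reason, again with the seed in capitals.
miR-302b-5p: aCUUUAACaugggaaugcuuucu
miR-302c-5p: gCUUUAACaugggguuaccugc
miR-302d-5p: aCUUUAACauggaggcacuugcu
miR-302a-5p: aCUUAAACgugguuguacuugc
miR-367-5p: aCUGUUGCuaacaugcaacuc

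MiR-302b, miR-302c and miR-302d shared the 5p seed CUUUAAC, which no other mature name in the table has. MiR-302a-5p has CUUAAAC and miR-367-5p has CUGUUGC, each found in 1 name only. The counts are per gene, so none of the levels below can be divided between the arms.

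The 4 Mir302 hairpins share long runs of letters, all within the 3p arm. Mir302a and Mir302b share 20 letters, AGUAAGUGCUUCCAUGUUUU, and Mir302d shares the 17 letters UAAGUGCUUCCAUGUUU with each of them. Mir302c shares 16 letters with each of the other 3, AAGUGCUUCCAUGUUU. Mir367 shares at most 9 letters with any other member. Outside the cluster, the longest run shared with any other hairpin in the table was 13 letters for Mir302b and Mir302d, 12 for Mir302c and 11 for Mir302a and Mir367. Multi-mapping reads stayed outside the gene rows, so a read that lay wholly inside a shared run is missing from these values. How many reads this concerns was not tested.

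The hairpins were poorer in G and C than most, at 39.2% for Mir302b, 39.4% for Mir302d, 42.0% for Mir302a, 42.7% for Mir367 and 47.1% for Mir302c, against a median of 51.7% over all 1005 hairpins. The predicted folding energy per nucleotide was -0.46 kcal/mol for Mir302a and Mir367, -0.42 for Mir302c and Mir302d and -0.31 for Mir302b. The median over all hairpins was -0.41 kcal/mol, and 84.2% of them were more stable per nucleotide than Mir302b.

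The libraries held 4464927 (replicate 1) and 4753555 (replicate 2) counts on the strand of a miRNA gene, 38.0% and 36.4% of all reads. Levels are given as counts scaled so that each library sums to 1000000 (CPM), and where a gene had a count of 0 the upper limit taken was that of 3 counts (0.672 CPM for replicate 1, 0.631 for replicate 2). Intervals on counts are exact, at 95%, and cover counting error only, since PCR copies could not be told from separate molecules. Of the miRNAs that mark forebrain neurons and progenitors, Mir137, Mir153, both Mir128 genes, Mir92b and Mir9-3 had means from 733 to 9092 CPM. The 3 Mir124a rows stood between 1.05 and 2.80 CPM and Mir9-2 at 3.26 CPM. Multi-mapping reads, 44.6% (replicate 1) and 42.4% (replicate 2) of all reads, are outside the gene rows. Genes with several copies, such as Mir124a and Mir9, can lose reads in this way, so low rows do not show that these miRNAs were scarce. The size of this loss was not tested.

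MiRNAs of the cluster were present at a low and nearly equal level in the forebrain pools. The 5 genes summed to 1165 counts in replicate 1, or 260.9 CPM (exact Poisson interval 246.2 to 276.3), and to 1243 counts in replicate 2, or 261.5 CPM (interval 247.2 to 276.4). The mean was 261.2 ± 0.40 CPM (SD, n = 2), which is 0.0261% of the counts in gene rows. Per 1000000 of all reads, unmapped and multi-mapping reads included, the mean was 97.1. In bulk tissue, fewer cells with these miRNAs and less of them per cell cannot be told apart.

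Mir302a was the highest member. It had 467 counts in replicate 1 (104.6 CPM) and 508 in replicate 2 (106.9 CPM), a mean of 105.7 ± 1.61 CPM (SD, n = 2). It made up 40.1% of the cluster's counts in replicate 1 (Clopper-Pearson interval 37.3 to 43.0) and 40.9% in replicate 2 (38.1 to 43.7).

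Mir302d, which carries the same 3p seed as Mir302b, came next. It had 410 counts (91.8 CPM) in replicate 1 and 428 (90.0 CPM) in replicate 2, a mean of 90.9 ± 1.26 CPM (SD, n = 2). Its share of the cluster was 35.2% in replicate 1 (interval 32.4 to 38.0) and 34.4% in replicate 2 (31.8 to 37.1).

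Mir302b, the first gene of the run, had 266 counts (59.6 CPM) in replicate 1 and 277 (58.3 CPM) in replicate 2, a mean of 58.9 ± 0.922 CPM (SD, n = 2). Its share was 22.8% (interval 20.5 to 25.4) and 22.3% (20.0 to 24.7). Together Mir302a, Mir302d and Mir302b held 98.1% of the cluster's counts in replicate 1 and 97.6% in replicate 2.

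Mir302c, the member whose listed 3p arm starts 1 base later, stood far below these 3. It had 22 counts (4.93 CPM) in replicate 1 and 28 (5.89 CPM) in replicate 2, a mean of 5.41 ± 0.681 CPM (SD, n = 2), or 1.89% (interval 1.19 to 2.85) and 2.25% (1.50 to 3.24) of the cluster.

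Mir367, the last gene of the run, was at the limit of what these libraries can show. It had 0 counts in replicate 1, which allows up to 0.672 CPM, and 2 counts in replicate 2, or 0.421 CPM (exact Poisson interval 0.0510 to 1.52). Its precursor shares no run of 16 or more letters with any other hairpin in the table, so the sharing described for the Mir302 genes was not found for it among these hairpins.

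**Figure D1:**
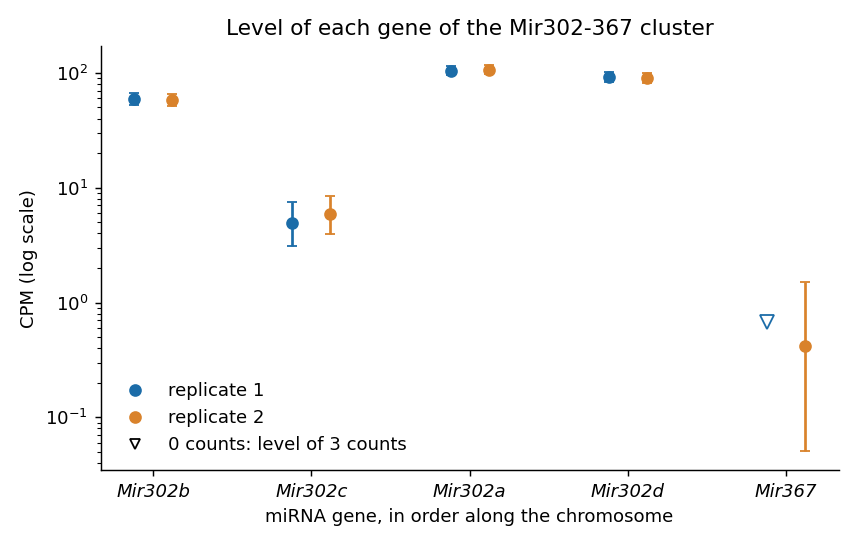
CPM on a log axis for the 5 genes in genomic order, with replicate 1 in blue and replicate 2 in orange, bars giving the exact 95% Poisson interval and the open triangle the level of 3 counts where the count was 0. The libraries lie on top of each other for Mir302b, Mir302a and Mir302d, Mir302c is near 5 CPM and Mir367 below 1 CPM.

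Read along the chromosome, the levels did not run in 1 direction. They went from 58.9 CPM at Mir302b down to 5.41 at Mir302c, up to 105.7 at Mir302a, then to 90.9 at Mir302d and 0.210 CPM (mean of 0 and 0.421) at Mir367. The low Mir302c is thus flanked on either side by genes at more than 50 CPM, 61 nt upstream and 65 nt downstream. The 43 nt between Mir302d and Mir367 is the shortest gap in the cluster, and beside it lies the largest drop.

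**Figure D2:**
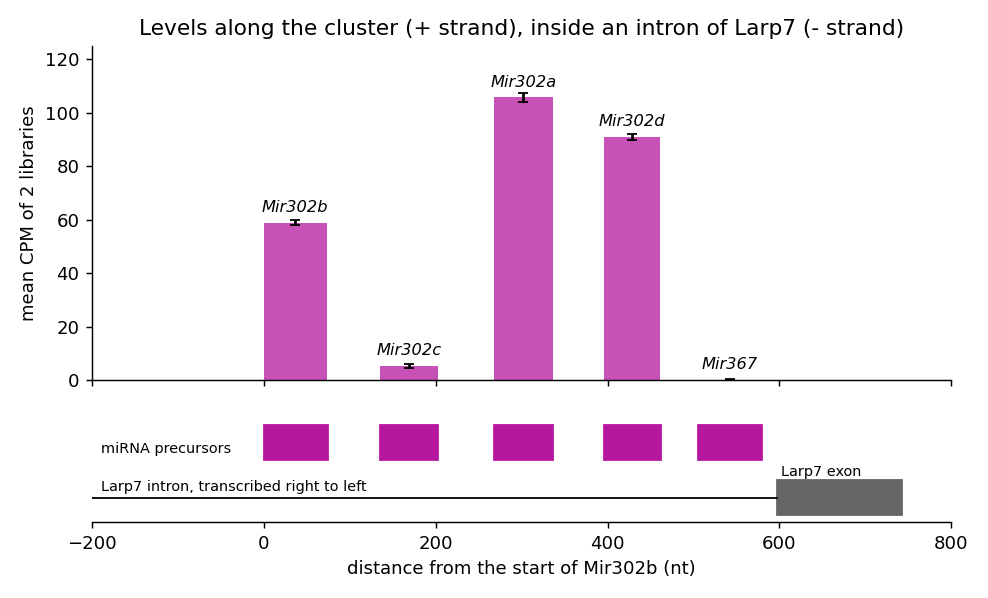
Mean CPM (bars, with SD over 2 libraries) at the position of each precursor, in nt from the start of Mir302b, above a map of the precursors and of the Larp7 intron and exon 8. The low Mir302c, at 5.41 CPM, lies between Mir302b and Mir302a, and Mir367 lies beside the Larp7 exon.

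Of the 4 steps in the order of levels, 3 were beyond counting error in both libraries. The first, from Mir302a to Mir302d, was not. Mir302a had 1.14 times the counts of Mir302d in replicate 1 (interval 0.995 to 1.30, which includes 1) and 1.19 times in replicate 2 (1.04 to 1.35). Their means differed by 14.8 CPM and by a factor of 1.16. The SDs over the 2 libraries (1.61 CPM for Mir302a, 1.26 for Mir302d) were below the counting SDs of the means (3.39 and 3.14 CPM). They are therefore no measure for this gap. The spread of a gene between libraries (coefficient of variation 16.1% over all genes) is another measure than this ratio within a library. Mir302a was the higher in both libraries, but the order of these 2 genes is not firm, since the interval in replicate 1 includes 1.

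Mir302d exceeded Mir302b 1.54-fold in replicate 1 (interval 1.32 to 1.81) and 1.55-fold in replicate 2 (1.33 to 1.80). Mir302b exceeded Mir302c 12.1-fold in replicate 1 (interval 7.82 to 19.6) and 9.89-fold in replicate 2 (6.70 to 15.2). From Mir302c to Mir367 the step was from 22 counts to 0 in replicate 1, a ratio with an exact 95% lower limit of 5.48. In replicate 2 it was 14.0-fold (interval 3.53 to 121.3). Between the highest and the lowest member, the ratio of Mir302a to Mir367 in replicate 2 was 254.0 (interval 69.95 to 2103). A read comes from a mature product and not from the whole precursor, so these levels are not divided by length. Dividing by precursor length gave 1.53, 1.38, 0.796, 0.0795 and 0.0028 CPM per nt for Mir302a, Mir302d, Mir302b, Mir302c and Mir367, the same order.

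A gene was taken as detected if it had 10 or more counts in replicate 1 and also in replicate 2. From its highest to its lowest detected gene the cluster ran over 19.5-fold by the means, which leaves out Mir367. Among the 15 groups of at least 3 detected miRNA genes on 1 strand with neighbours within 10 kb, this was the 13th widest range, and the median of the 15 was 90.4-fold. The groups differ in their number of genes, from 3 to 30, and wider ranges are easier to reach with more genes. In some groups the lowest gene is numbered as a copy, such as Mir19b-1 (group range 2787-fold) and Mir19b-2 (90.4-fold, the median group). Multi-mapping reads are outside the gene rows, so such genes may stand too low and the ranges of their groups too wide. This was not tested, and the place of the Mir302 genes is a description only.

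All reads of the cluster fell in the column taken as the strand of the miRNA genes. No source names the strand of the columns, and this one held 4464927 gene counts in replicate 1 against 72065 in the other. Of 2408 counts over both libraries, 0 were in the other column, that of the Larp7 strand under this reading, which allows a share of up to 0.125%. Among all 370 detected genes, 332 (89.7%) likewise had no count on the opposite strand, so this was the usual case.

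Of the 5 members, 4 were detected, against 370 of all 1973 rows (18.8%), and the median member stood at 58.9 CPM, against 0 CPM over all rows and 110.9 CPM over detected rows. Mir302a ranked 187 among the 370 detected genes, Mir302d 196, Mir302b 224 and Mir302c 322. The cluster thus lay in the lower part of the detected profile, with its top gene near the middle.

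**Figure D3:**
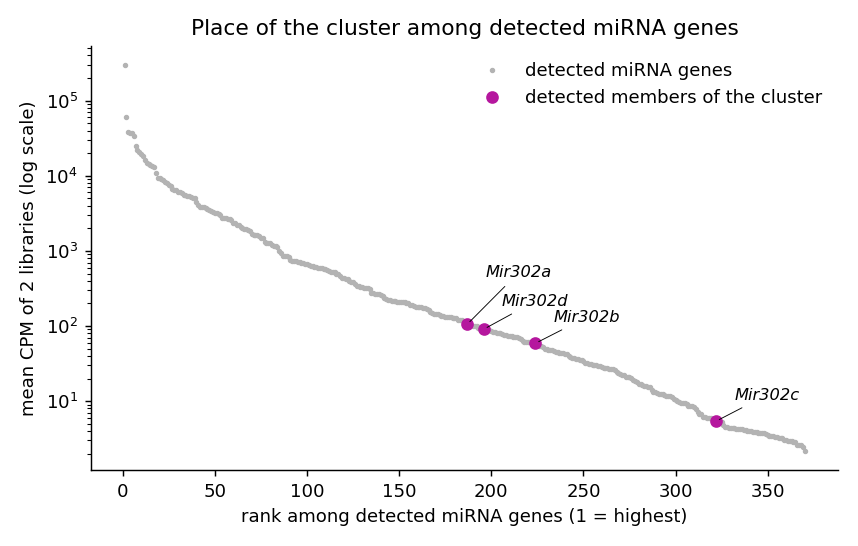
Mean CPM on a log axis against rank for the 370 detected miRNA genes (grey), with the 4 detected members marked. Mir302a, Mir302d and Mir302b lie between ranks 187 and 224, and Mir302c lies at rank 322.

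The genes with the most similar levels over the 2 libraries, by Euclidean distance of log2(CPM + 1), are given as a scale. Nearest to Mir302a were Mir222, on chromosome X, at 105.1 ± 0.513 CPM (distance 0.031) and Mir33, on chromosome 15, at 107.4 ± 3.37 CPM (distance 0.039). Nearest to Mir302d were Mir135a-2 at 91.9 ± 3.76 CPM (0.043) and Mir200b, an epithelial miRNA, at 87.8 ± 1.28 CPM (0.071). Mir7j (58.6 ± 1.85 CPM, distance 0.068) and Mir673 (61.0 ± 1.17 CPM, distance 0.069) were nearest to Mir302b. Mir26a-1 (5.31 ± 0.225 CPM, distance 0.11) and Mir675, which is cut from the imprinted RNA H19, at 5.94 ± 1.12 CPM (distance 0.17) were nearest to Mir302c. With 2 libraries, these distances measure closeness of level and little else. Multi-mapping reads are left out of the levels, so genes numbered as copies, such as Mir26a-1 and Mir135a-2, may stand too low here. This was not tested.

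The libraries did not differ detectably in any member that could be tested. Genes with 10 or more counts over both libraries entered the test, and each gene's counts were set against the libraries' shares of all gene counts by a two-sided exact binomial test with Benjamini-Hochberg adjustment. Of all 457 genes tested, 36.3% were called at an adjusted p below 0.05, and of the 4 members tested, 0 were called. Against that share, a count of 0 in 4 genes says little about the cluster. Of the called genes, 53.0% were higher in replicate 2, against 43.4% with TMM scaling, 41.7% with DESeq2 scaling and 69.1% when the total excluded the most abundant gene, Mir99a. None of the 4 had an unadjusted p below 0.05 in the exact binomial test either, and the lowest was 0.573. The test compares 2 libraries of 1 group, not conditions.

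The log2 ratio of replicate 2 over replicate 1 was 0.03 for Mir302a (interval -0.15 to 0.22, exact binomial test, adjusted p = 0.871), with 467 and 508 counts. It was -0.03 for Mir302d (-0.23 to 0.17, adjusted p = 0.878) and -0.03 for Mir302b (-0.28 to 0.22, adjusted p = 0.888), by the same exact test. For Mir302c, with 22 and 28 counts, it was 0.25 (-0.60 to 1.13, adjusted p = 0.737 by the exact test). A difference in Mir302c as large as 1.13 on the log2 scale thus lies within its interval, while differences in Mir302a beyond 0.22 lie outside. Mir367, with 2 counts in all, was not tested.

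The median absolute log2 ratio of the 4 members was 0.03, against 0.19 over the 370 detected genes. Of the detected genes, 90.8% had a larger absolute ratio than Mir302d, 89.2% a larger one than Mir302a, 88.4% than Mir302b and 37.3% than Mir302c. For the cluster as a whole the log2 ratio was 0.0031 (interval -0.11 to 0.12). The difference between the libraries was smaller than its counting SD for Mir302a (2.27 CPM against 6.78), Mir302d (-1.79 against 6.29), Mir302b (-1.30 against 5.06) and Mir302c (0.963 against 1.53). Such closeness is within what counting error alone allows, and does not show that the pools were equal.

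The signs of these ratios depended on scaling. With the deposited totals 2 of the 4 ratios were above 0, with TMM or DESeq2 scaling 1, and without Mir99a in the total all 4. Leaving out Mir99a moved the median log2 ratio of all detected genes from 0.05 to 0.11, and that of the members from 0.0012 to 0.06.

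**Figure D4:**
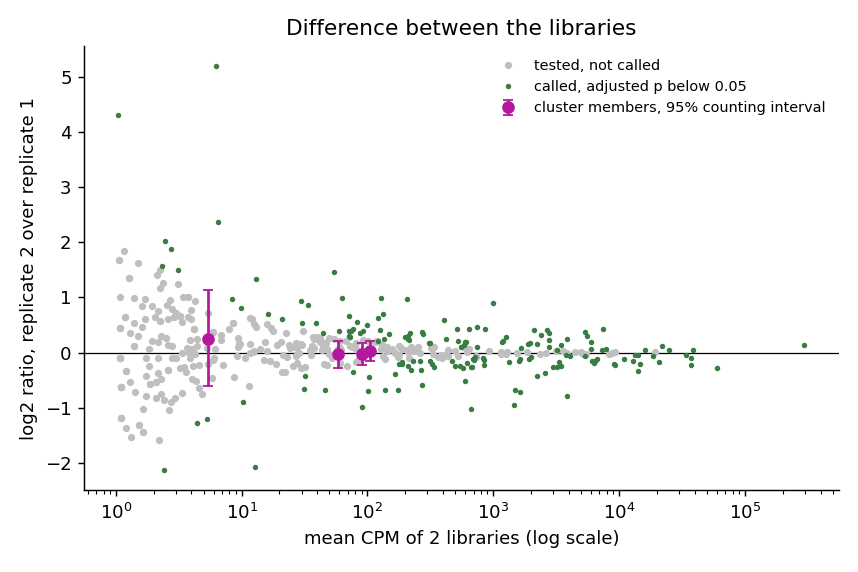
Log2 ratio of replicate 2 over replicate 1 against mean CPM (log axis) for the 457 tested genes, called genes in green and the others in grey, with the 4 tested members and their 95% counting intervals. Mir302a, Mir302b and Mir302d lie within 0.04 of 0, and the interval of Mir302c runs from -0.60 to 1.13.

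The Mir290a to Mir295 cluster on chromosome 7, the other miRNA cluster known for mouse embryonic stem cells, was much lower. Its 3p arms with the same seed as miR-302b-3p are shown so that they can be read beside it, with the seed in capitals.
miR-291a-3p: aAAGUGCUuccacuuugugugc
miR-294-3p: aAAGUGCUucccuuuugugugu
miR-295-3p: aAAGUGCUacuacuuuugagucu

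Of the 9 genes listed for it, 7 had a row here, Mir290b and Mir292b being without one. They summed to 38 counts in replicate 1 (8.51 CPM) and 36 in replicate 2 (7.57 CPM), or 8.04 ± 0.663 CPM (SD, n = 2). The Mir302/Mir367 cluster stood at 260.9 and 261.5 CPM in the same libraries, and the sums of the clusters did not overlap. Only Mir293 passed 10 counts in each library, with 11 and 19 (3.23 ± 1.08 CPM). Mir294 had 12 and 7 counts (2.08 ± 0.859 CPM), and Mir292, listed as Mir292a, had 7 and 3 (1.10 ± 0.662 CPM). The median of the 7 genes was 0.652 CPM, and none of the 3 that could be tested was called between the libraries (lowest adjusted p = 0.357, exact binomial test). With 36.3% of all tested genes called, a count of 0 in 3 genes says little about this cluster.

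Counting every gene with the seed AAGUGCU, Mir302a included by its hairpin, 6 genes had a row and summed to 258.5 ± 1.78 CPM (SD, n = 2). Those outside the cluster, Mir291a, Mir294 and Mir295, gave 2.96 ± 1.20 CPM of this. In these libraries nearly all counts of these 6 genes thus came from Mir302a, Mir302d and Mir302b. Mir302a was the only gene added by its hairpin, and counts per gene do not show which reads carry this seed.

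The same 7 letters stand 1 base further in, at bases 3 to 9, in the 5p arms of Mir17, Mir20a, Mir20b, Mir93, Mir106a and Mir106b, of the miR-17 family, which is known for its part in proliferation. The 2 most abundant genes of that family are shown with the shared letters, not the seed, in capitals.
miR-17-5p: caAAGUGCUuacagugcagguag
miR-93-5p: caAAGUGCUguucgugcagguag

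The 8 genes listed for that family, which include Mir18 and Mir18b without these letters at that place, were all detected and summed to 80344 CPM in replicate 1 and 77396 CPM in replicate 2, 301.9 times the Mir302/Mir367 cluster by the means. Mir17 stood at 33935 ± 596 CPM, Mir93 at 18609 ± 627 CPM and Mir20a at 12929 ± 928 CPM. The lowest, Mir18b, had 27.1 ± 0.895 CPM and was below Mir302a, Mir302d and Mir302b, and Mir20b (210.9 ± 0.788 CPM) was above each of them. By the exact binomial test 3 of the 8 were called lower in replicate 2 and 0 higher, a share close to the 36.3% of all tested genes. With TMM and with DESeq2 scaling 4 were called lower and 0 higher, and when the total excluded Mir99a 1 was lower and 4 higher, so the family had no firm direction.

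Genes with the seed of miR-367-3p were abundant although Mir367 was not. The sequence of the highest of them is shown beside miR-367-3p for comparison, with the seed in capitals.
miR-92b-3p: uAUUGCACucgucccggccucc
miR-367-3p: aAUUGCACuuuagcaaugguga

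The 6 other genes with this seed were all detected and summed to 8292 CPM in replicate 1 and 10372 CPM in replicate 2, while Mir367 had 0 and 0.421 CPM. Mir92b, a miRNA of neural progenitors, led with 5547 ± 814 CPM, followed by Mir92-1 (Mir92a-1) at 2655 ± 528 CPM and Mir25 at 606 ± 59.7 CPM. The lowest, Mir92-2, had 101.5 ± 10.2 CPM. Between the libraries 5 of the 6 were called higher in replicate 2 by the exact binomial test and 0 lower, where 36.3% of all tested genes were called in either direction. The ratios of all 6 stayed above 0 with TMM and DESeq2 scaling and when the total excluded Mir99a. These calls cover counting error only, between 2 libraries of 1 group. Mir92-1 and Mir92-2 give the same mature miR-92a-3p, and multi-mapping reads are outside the gene rows. Reads of that arm may thus be missing from both genes, so the order of the 6 levels does not rank the products with this seed. How many reads this concerns was not tested. The 6 genes belong to 1 family and are not taken as independent. Mir367 has too few counts for the exact binomial test.

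**Figure D5:**
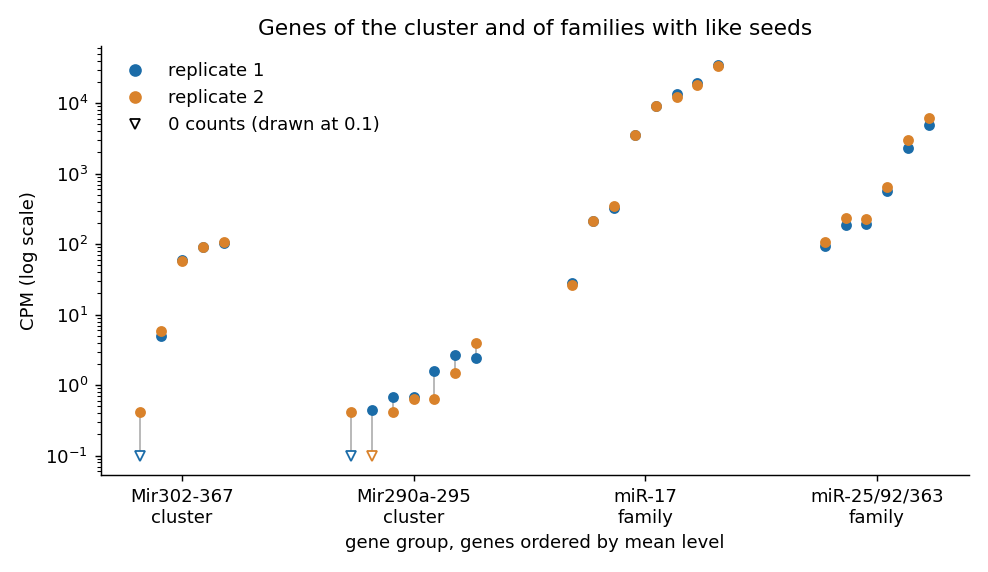
CPM on a log axis for each gene of the Mir302/Mir367 cluster, of the Mir290a to Mir295 cluster, of the miR-17 family and of the family of miR-25, miR-92 and miR-363, genes ordered by mean level, replicate 1 in blue and replicate 2 in orange, with open triangles for counts of 0. The top of the Mir302/Mir367 cluster is near 106 CPM, above every gene of the Mir290a to Mir295 cluster and below 7 of the 8 miR-17 family genes.

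MiRNAs that mark cell types were summed in the same libraries to set the cluster on their scale. Markers of forebrain neurons summed to 14781 and 13947 CPM in replicates 1 and 2, and those of neural progenitors to 5722 and 6843 CPM. Endothelial Mir126a stood at 15856 and 16377 CPM, and 5 mesenchymal genes summed to 3437 and 3780 CPM. Erythroid genes summed to 139.5 and 164.9 CPM, and the immune genes Mir223 and Mir155 to 163.7 and 166.8 CPM, below the 260.9 and 261.5 CPM of the Mir302/Mir367 cluster. Liver Mir122 had 65.6 and 88.6 CPM. Of the muscle genes 3 of 4 were at 0 in both libraries, and Mir206 had 20.6 and 4.84 CPM. Mir9-1, Mir126b, Mir142 and Mir1a-2 had no row here. Multi-mapping reads are outside all these sums, so genes with several copies, such as Mir124a and Mir9, can be undercounted. The sums therefore do not rank the cell types against each other. Which cells the Mir302 counts came from was not tested.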

How the data were processed

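Small RNA was sequenced from 2 pools of embryonic forebrain, which the labels give as biological replicates of 1 group. The authors deposited raw whole-number counts, 1 row per miRNA gene, not normalized and made on mm10 with GENCODE M4 annotation per the deposited README text. The aligner is not named in the sources used here, nor is the counter. Column 3 of each deposited count file was used as the sense column. No source names the strands, and most gene counts are in it. The 4 rows that name no gene stayed outside totals and tests. Multi-mapping reads, 44.6% and 42.4% of all reads in replicates 1 and 2, and reads in no feature (3.03% and 3.07%) were among them.

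Symbols and coordinates came from GENCODE M21 by identifier (1894 of 1973 rows matched). Sequences came from RefSeq (GRCm38.p6), where all 5 members matched. ViennaRNA 2.7.2 gave folding energies. The spread between libraries was edgeR's (4.0.16) common dispersion, with TMM factors and no term but the intercept, and DESeq2 1.42.0 gave alternative size factors. The quasi-likelihood test was not run, since 1 group holds no contrast. The exact binomial test (SciPy 1.17.1) used genes with at least 10 counts in total, and ratios had 0.5 counts added. On simulated libraries of 454 tested genes it recovered 41.1%, 74.4%, 70.8% and 91.3% of genes changed by 0.25, 0.5, 1 and 2 on the log2 scale. With no gene changed it called 0 of 460. The simulated libraries held counting error only, without the spread between libraries of the data (coefficient of variation 16.1%). They cannot show how often the test calls unchanged genes in these data.

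Named genes were the members, the 2 genes nearest in level to each detected member, and up to 3 of highest mean in each list. Others were named after their values were seen: Mir18b, Mir19b-1, Mir19b-2, Mir20b and Mir92-2, the markers, and Mir99a. The members and lists were chosen with earlier results of these data known. Alternatives were other scalings, strands, count minimums and precursor length, and leaving out each replicate.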

Additional observations from a re-analysis of the deposited data

How the results depend on the processing

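The order of the 5 members was the same under all 8 alternatives run, and no member was called between the libraries under any of the 6 run. Scalings within a library cannot change that order, by their construction. The cluster total of 261.2 CPM became 371.6 CPM with Mir99a excluded from the total, 97.1 per 1000000 of all reads and 257.2 with either strand counted (other denominators), and 260.9 to 261.5 without either replicate. The fold from highest to lowest detected member, 19.7 as a mean over libraries, ran from 18.1 to 21.2 without either replicate. The number of members detected was 4 without either replicate and 3 with at least 100 counts in each library, where Mir302c was lost. Genes with the seed of miR-302b-3p summed to 254.6 CPM with either strand counted, against 258.5, and to 257.3 to 259.8 without either replicate. Those with the seed of miR-367-3p ran from 8292 to 10372 CPM, and the Mir290a to Mir295 cluster from 7.57 to 8.51 CPM, without either replicate. The coefficient of variation between libraries was 16.2% without TMM factors, 15.1% with at least 100 counts in total and 20.7% by the DESeq2 trend at the members' mean, against 16.1%; the cause was not tested. No paired analysis was possible because the series holds 1 group. Depth limits Mir302c and Mir367, with 22 to 28 and 0 to 2 counts a library.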
